A study of Mus musculus with 2 samples.

Results

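The 35 genes described here encode lysosomal proteins. They comprise 9 cathepsins and legumain, 8 glycosidases and a sulfatase counted together, 8 genes of lipid and other protein handling, 8 membrane proteins and the transcription factor Tfeb. They were chosen by name as lysosomal enzymes and membrane proteins, not by any measured value. All 35 symbols were present among the 27998 gene identifiers of both count matrices. Of these, 34 had at least 50 unique molecular identifiers (UMIs, tags that mark single RNA molecules) over both libraries and are called measured below, and Lgmn had 47.

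The material was cultured mouse leukaemia cells with the MLL-AF9 fusion, an oncoprotein of acute myeloid leukaemia, and Cas9, a nuclease directed by a single guide RNA (sgRNA). The edited culture held an sgRNA against the region of Jmjd1c that encodes its Jumonji domain, the catalytic fold of this family of histone demethylases. The control culture held an sgRNA against Renilla luciferase, a sequence that mice lack. Both were grown in RPMI with serum, penicillin-streptomycin and mouse interleukin-3, a myeloid growth factor, and each was read as 1 droplet library of single cells with the 10x Genomics 3′ kit. The libraries are named below by their guide, Jumonji and Renilla. The labels do not state whether the edited cells were a pool or a clone, the promoter of Cas9, the time after guide delivery or the mouse strain. With 1 library per group no difference below has a replicate check, no test between the guides was made, and the intervals cover counting error only. Differences between cultures, guides and library preparations cannot be told apart.

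Lysosomes are acid compartments in which proteins, sugars and lipids taken up or turned over by the cell are broken down. Cathepsins are their proteases. Most are made as inactive precursors that are cut to the active form in the acid lumen, and cystatins and stefins inhibit the cysteine cathepsins. Monocytes and macrophages are rich in lysosomes, whereas immature granulocytes store the serine proteases of primary granules, which include cathepsin G, a protease of another family despite its name. TFEB is a transcription factor that binds E-box letters in the promoters of many lysosomal genes. PU.1, a myeloid factor, binds ETS-family letters of the type GAGGAAGT.

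Promoter sequences are shown first, because many of these genes differed together between the libraries. RefSeq windows on GRCm38.p6, from 250 bases before to 50 after the annotated start, were found for 30 of the 35 genes, and none was found for Ctsb, Ctsh, Ctse, Npc1 and Asah1. Each window was searched on both strands for the E-box CACGTG, for its extended form TCACGTGA, every match of which also holds a CACGTG, and for the ETS letters GAGGAAGT. A gene with several windows was counted once, as holding a match if any window did. CACGTG stood in 11 of the 30 genes (36.7%), in 23.8% of 105 genes of related lists and in 8.09% of all 27025 genes. The related lists, compared further below, hold not only lysosomal genes but also primary granule, inhibitor, autophagy and mTORC1 genes. TCACGTGA stood in 4 genes (13.3%), against 10.5% and 1.12%. GAGGAAGT stood in 3 genes (10%), against 3.81% and 3.69%. Lgmn, Ctsa and Cln3, each with an E-box, had 2 windows. The lines below give 30 bases around a match, 5′ to 3′ on the gene's own strand, with the matched letters in capitals. They show all 4 genes that hold the extended form, both cathepsins that hold the ETS letters, here as their complement ACTTCCTC, and the plain E-boxes of Lgmn and Ctsl.
Ctsd, extended E-box, chr7:142387908-142387937, minus strand: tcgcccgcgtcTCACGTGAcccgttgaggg
Ctsa, extended E-box, chr2:164833749-164833778, plus strand: tgagcaaactgTCACGTGAtgcagatgctc
Mcoln1, extended E-box, chr8:3500462-3500491, plus strand: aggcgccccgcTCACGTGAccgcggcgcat
Cln3, extended E-box, chr7:126583340-126583369, minus strand: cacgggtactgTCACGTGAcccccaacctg
Ctss, ETS letters, chr3:95526773-95526802, plus strand: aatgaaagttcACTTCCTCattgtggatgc
Ctsc, ETS letters, chr7:88277923-88277952, plus strand: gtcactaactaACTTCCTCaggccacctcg
Lgmn, E-box, chr12:102439124-102439153, minus strand: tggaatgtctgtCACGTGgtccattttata
Ctsl, E-box, chr13:64370739-64370768, minus strand: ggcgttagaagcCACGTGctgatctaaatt

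A match describes letters in a window and is neither a binding site nor a cause. In Ctss the matched letters began 2 bases before the annotated start, and in Ctsa, which held a second extended E-box 5 bases after the start, they began 13 bases before it. The window of Lamp1 held 4 E-boxes, whose first bases lay 61, 45, 28 and 15 bases before the start. All these starts are those of the RefSeq windows, whereas the gene spans given below are from GENCODE and can start elsewhere. The printed windows of Ctsd, Ctsa, Lgmn and Ctsl lie inside their GENCODE spans.

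After filtering, 608 Renilla cells gave 14418743 UMIs (median 23528 per cell) and 575 Jumonji cells gave 12809661 UMIs (median 22123). The 2 libraries shared 0 cell barcodes. Jmjd1c itself was at 140 CPM (UMIs of a gene scaled to a common library total) in the Renilla library and 112 CPM in the Jumonji library, a log2 ratio of -0.33 (95% interval -0.42 to -0.23). The kit reads 3′ ends, so this value does not check a cut in the coding sequence. Of 8 lymphoid markers, 5 were at 0 (Cd3e, Cd3d and Ncr1 among them), as were 3 of 6 erythroid and 3 of 6 stromal markers. Some markers of other cell types were present: lymphoid Nkg7 had 392 UMIs in the Renilla and 357 in the Jumonji library, and stromal Pdgfrb had 152 and 162 and Pecam1 47 and 86. The summed megakaryocyte list was at 7.21 and 20.6 CPM. The summed level of the neutrophil list was 151 CPM in the Renilla and 937 CPM in the Jumonji library, with 4 of its 13 genes (Ltf, Fpr1, Fpr2 and Retnlg) at 0 in both. The monocyte and macrophage list of 18 genes was at 3258 and 6640 CPM with none at 0, and the primary granule list of 5 genes at 5221 and 1808 CPM with none at 0. Single genes weighed much in the first 2 sums: Tyrobp gave 22300 Renilla and 42286 Jumonji UMIs, S100a8 927 and 6378, and S100a9 602 and 4319. By the 1.5-fold rule, the monocyte list held 10 members up in the Jumonji library and 2 down, among 14 measured. The neutrophil list held 7 up and 1 down, among 8. Down were Ccr2 (365 and 146 UMIs), Ms4a6d (63 and 23) and neutrophil Camp (248 and 65). Ly6c2 (6345 and 4767) was lower by less. The part of these differences in the results below was not tested, other than by the comparison at equal maturation score.

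Lysosome and cathepsin transcripts made up a larger share of RNA in the Jumonji library. The 35 genes together took 0.309% of UMIs in the Renilla library (3089 CPM) and 0.544% in the Jumonji library (5445 CPM), a 1.76-fold difference and a log2 ratio of 0.82 (0.80 to 0.83). Of the 34 measured genes, 31 had a ratio above 0, 24 were 1.5-fold or more higher in the Jumonji library and 0 were 1.5-fold or more lower. Among all 9922 genes that reached 50 UMIs, 11% were 1.5-fold or more higher and 9.04% 1.5-fold or more lower. The median log2 ratio was 0.81 over the 34 genes and -0.06 over all genes. The counting interval lay above 0 for 29 of the genes, spanned 0 for 5 and lay below 0 for 0, while it lay above 0 for 24.8% of all genes and below 0 for 30.1%. A ratio above 0 was found for 44% of all genes. Of the higher genes, 11 were at least 2-fold higher, beside 545 of all 9922 genes. Giving the 4 maturation bins described below equal weight lowers the count of genes 1.5-fold or more higher from 24 to 12.

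**Figure D1:**
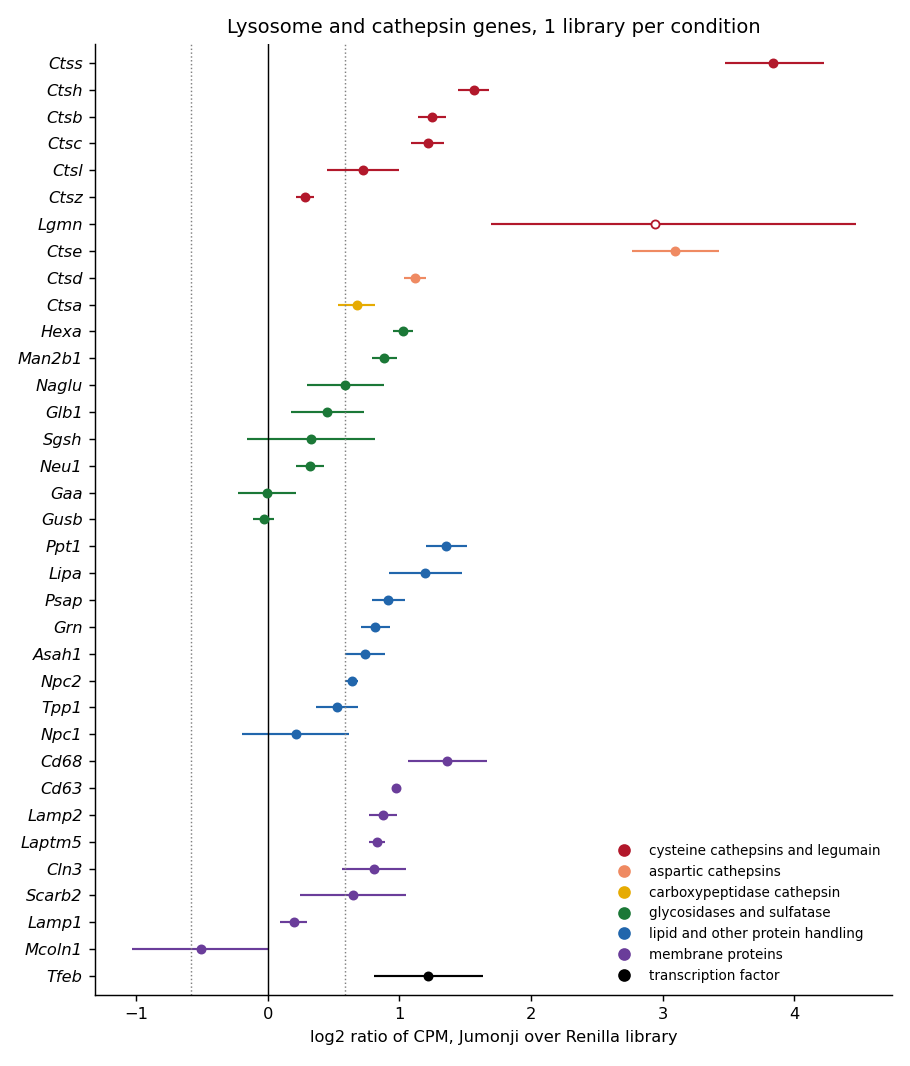
Jumonji over Renilla as a log2 ratio of CPM for each lysosome and cathepsin gene, ordered by role, with bars for the 95% counting interval, dotted lines at 1.5-fold and an open circle for Lgmn, which had under 50 UMIs. Ctss (3.84) and Ctse (3.09) lie farthest to the right, and Mcoln1 (-0.50) is the lowest.

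The cathepsins stood above the other genes of the list by their median. Cathepsins and legumain summed to 607 CPM in the Renilla and 1224 CPM in the Jumonji library, a 2.02-fold difference and a log2 ratio of 1.01 (0.97 to 1.05). Of their 9 measured members, 8 were 1.5-fold or more higher, with a median log2 ratio of 1.22. The 25 other genes had a median of 0.74, and 16 of them were 1.5-fold or more higher. These medians describe lists of unequal size in 2 libraries, and the difference between them was not tested.

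Cathepsin S, a cysteine protease that trims the invariant chain of MHC class II in antigen-presenting cells, differed most of the 34. Its gene Ctss (chr3:95526786-95556403, plus strand) gave 65 UMIs (4.51 CPM) in the Renilla library and 826 UMIs (64.5 CPM) in the Jumonji library. It was nearly absent from the control and clearly present in the other library, at a log2 ratio of 3.84 (3.47 to 4.23), or 14.3-fold. Only 29 of the 9922 genes had a higher ratio.

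Cathepsin E, an aspartic protease of endosomes that is found in few tissues, came next. Ctse (chr1:131638306-131675505, plus strand) gave 89 UMIs (6.17 CPM) in the Renilla and 674 UMIs (52.6 CPM) in the Jumonji library, a log2 ratio of 3.09 (2.77 to 3.43) or 8.52-fold. Cathepsin D, the aspartic protease found in lysosomes of nearly all cells, was already abundant in the control. Ctsd (chr7:142375911-142388038, minus strand) stood at 115 CPM in the Renilla and 250.5 CPM in the Jumonji library, a log2 ratio of 1.12 (1.03 to 1.21). The counting intervals of these 2 ratios did not overlap.

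The other cysteine cathepsins divided into 3 that differed by over 2-fold and 2 that differed less. Ctsh (chr9:90054152-90076089, plus strand), which encodes an aminopeptidase, was at 54.2 and 160 CPM, a log2 ratio of 1.56 (1.44 to 1.68). Ctsb (chr14:63122462-63145923, plus strand), a widely expressed endopeptidase and dipeptidase, was at 77.5 and 184 CPM, a log2 ratio of 1.25 (1.14 to 1.35). Ctsc (chr7:88278085-88310888, plus strand), the dipeptidyl peptidase that activates the serine proteases of granules, was at 53.7 and 125 CPM, a log2 ratio of 1.22 (1.09 to 1.34). For these 3 genes the levels of the Jumonji library were 2.33-fold to 2.96-fold those of the control. Ctsl (chr13:64359337-64370890, minus strand), a broad endopeptidase, was lower in count, with 187 and 274 UMIs, and its log2 ratio was 0.72 (0.45 to 1.00). Ctsz (chr2:174427493-174439039, minus strand), a carboxypeptidase, had the most UMIs of the cathepsins, 3366 and 3642, and was the only measured cathepsin under 1.5-fold, at 233 and 284 CPM and a log2 ratio of 0.28 (0.22 to 0.35).

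Cathepsin A, a serine carboxypeptidase that also protects the sialidase Neu1 and the beta-galactosidase Glb1 in a complex, is encoded by Ctsa (chr2:164832873-164841032, plus strand). It was at 48.8 CPM in the Renilla and 78.1 CPM in the Jumonji library, a log2 ratio of 0.68 (0.54 to 0.82). Its partners differed less, Glb1 at 14 and 19.2 CPM (log2 ratio 0.46, 0.18 to 0.73) and Neu1 at 93.1 and 116 CPM (0.32, 0.21 to 0.43). Legumain, an asparaginyl endopeptidase that processes several cathepsins, was barely detected. Lgmn (chr12:102394084-102439813, minus strand) gave 6 UMIs in the Renilla and 41 UMIs in the Jumonji library, a log2 ratio of 2.94 with the wide interval of 1.70 to 4.47.

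The glycosidases and the sulfatase differed least as a role. Of these 8 genes, 3 were 1.5-fold or more higher in the Jumonji library, 0 were 1.5-fold or more lower, and the median log2 ratio was 0.39. Hexa, the alpha subunit of beta-hexosaminidase, was at 150 CPM in the Renilla and 306 CPM in the Jumonji library (log2 ratio 1.03, 0.95 to 1.11). Man2b1, the lysosomal alpha-mannosidase, was at 102 and 189 CPM (0.89, 0.79 to 0.98), and Naglu, which acts in heparan sulfate breakdown, at 11.9 and 18 CPM (0.59, 0.30 to 0.88). Gusb, the beta-glucuronidase, did not follow them. It stood at 197 CPM in the Renilla and 193 CPM in the Jumonji library with 2845 and 2477 UMIs, and its log2 ratio of -0.03 had an interval of -0.11 to 0.05, so at this depth a difference of 1.5-fold between these libraries would have lain outside it. Gaa, the acid alpha-glucosidase that degrades glycogen, was at 25.3 and 25.2 CPM (-0.01, -0.23 to 0.21). Sgsh, the sulfatase, had 70 and 78 UMIs and an interval that spanned 0 (-0.16 to 0.81).

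Among the 8 genes of lipid and other protein handling, 6 were 1.5-fold or more higher in the Jumonji library and the median log2 ratio was 0.78. Ppt1, which removes palmitate from proteins, was at 33.6 CPM in the Renilla and 85.9 CPM in the Jumonji library (log2 ratio 1.36, 1.2 to 1.51). Lipa, the acid lipase that splits cholesteryl esters, was at 11.4 and 26.2 CPM (1.2, 0.92 to 1.47). Psap, the precursor of the saposins that help sphingolipid enzymes, was at 60.8 and 115 CPM (0.92, 0.80 to 1.04). All 3 act on lipids or lipid-modified proteins.

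Grn, the progranulin precursor, was at 78.5 CPM in the Renilla and 138 CPM in the Jumonji library (0.82, 0.71 to 0.93). Asah1, the acid ceramidase, was at 41.3 and 68.8 CPM (0.74, 0.59 to 0.89). The cholesterol transfer protein gene Npc2 had the second most UMIs of the 35 genes, 5833 and 8067, and was at 405 and 630 CPM (0.64, 0.59 to 0.69). Npc1, the membrane protein that takes cholesterol from it, had only 102 and 105 UMIs, and its interval spanned 0 (-0.19 to 0.62). Tpp1, a tripeptidyl peptidase, was at 40.0 and 57.6 CPM (0.53, 0.37 to 0.69).

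Of the 8 membrane proteins, 6 were 1.5-fold or more higher and the median log2 ratio was 0.82. Cd63, a tetraspanin of late endosomes and granules, gave the most UMIs of all 35 genes, 10223 in the Renilla and 17884 in the Jumonji library. Its levels were 709 and 1396 CPM, a log2 ratio of 0.98 (0.94 to 1.01), and without it the summed ratio of the other genes was 0.77. Cd68, a heavily glycosylated protein used as a macrophage marker, was at 9.36 and 24.1 CPM (1.37, 1.07 to 1.67). The blood cell protein gene Laptm5 was at 265 and 470 CPM (0.83, 0.77 to 0.89).

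The 2 major glycoproteins of the lysosomal membrane differed unequally. Lamp2 was at 80.7 CPM in the Renilla and 148 CPM in the Jumonji library (0.88, 0.77 to 0.98), whereas Lamp1 was at 109 and 125 CPM (0.20, 0.10 to 0.30). Cln3, a membrane protein whose loss causes a neuronal storage disease, was at 16.2 and 28.3 CPM (0.81, 0.56 to 1.05), and Scarb2, the receptor that delivers glucocerebrosidase, at 6.38 and 9.99 CPM (0.65, 0.25 to 1.05). Mcoln1, the calcium channel of the lysosome, was the lowest of the 34 by ratio, with 83 and 52 UMIs, 5.76 and 4.06 CPM and a log2 ratio of -0.50 whose interval just spanned 0 (-1.03 to 0.01). Tfeb was at 5.13 and 11.9 CPM from 74 and 153 UMIs, a log2 ratio of 1.22 (0.81 to 1.64).

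The genes whose windows held an E-box did not stand higher than the others. The 10 measured genes with a CACGTG had a median log2 ratio of 0.52, with 5 1.5-fold or more higher, and the 19 measured genes without it had a median of 0.89, with 15 1.5-fold or more higher. Among the printed windows, Mcoln1 holds an extended E-box at a ratio of -0.50 and Ctsd holds the same letters at 1.12. The ETS letters stood in Ctss (3.84), Ctsc (1.22) and Gusb (-0.03).

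More cells gave a UMI of these genes in the Jumonji library. For a comparison at equal depth, 5000 UMIs were drawn from every cell, and 3 Renilla and 6 Jumonji cells with fewer were dropped. Of the 34 measured genes, 32 had a larger share of cells with a UMI in the Jumonji library, beside 44.3% of all 9922 genes. The exact 95% binomial intervals of the libraries lay apart for 20 with the Jumonji share higher and for 0 with it lower, beside 9.59% and 8.46% of all genes. Ctss was found in 1.49% of Renilla cells (0.68% to 2.81%) and in 19.2% of Jumonji cells (16% to 22.6%). Ctse was found in 2.81% (1.65% to 4.46%) and 25% (21.5% to 28.7%). For both genes most Jumonji cells still gave no UMI at this depth, and Lgmn was found in 0 of 605 Renilla cells, against 1.93% of Jumonji cells. A count of 0 allows up to 0.496% of cells with a UMI at 5000 UMIs per cell, by 3 counts, or 0.608% by the exact interval, and limits no share of expressing cells. In unthinned cells Lgmn was found in 6 of 608 Renilla cells (0.987%) and in 6.09% of Jumonji cells.

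For the more common cathepsins, the intervals of the libraries lay apart at this depth, other than for Ctsl. Ctsb was found in 32.7% of Renilla and 62.4% of Jumonji cells, Ctsd in 43.5% and 68.5%, Ctsh in 18.7% and 48.2% and Ctsc in 24.1% and 45.2%. Ctsa was found in 21.8% and 31.3%. Ctsl was found in 6.45% (4.62% to 8.71%) and 10.0% (7.68% to 12.8%), with overlapping intervals. Ctsz, with 65.1% (61.2% to 68.9%) and 74.3% (70.5% to 77.9%), was common in both. Npc2 and Cd63 approached all cells, at 82.6% and 94.6% for Npc2 and 85.8% and 92.6% for Cd63, while Gusb was at 61.8% and 64.3% with overlapping intervals. These shares depend on depth. Without thinning, the shares of Ctss were 5.10% and 37.2%, those of Ctse 11.5% and 52.7%, those of Ctsb 78.3% and 97.2% and those of Ctsd 89.0% and 98.1%. Ctsc was then in 65.5% and 87.8% of cells, Ctsh in 48.4% and 79.7%, Ctsa in 65.6% and 78.1%, and Ctsz in 97.4% and 96.3%. By the labels every cell is of the leukaemia, so no cell type that lacks these genes was at hand and the share due to free RNA in the droplets was not measured.

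**Figure D2:**
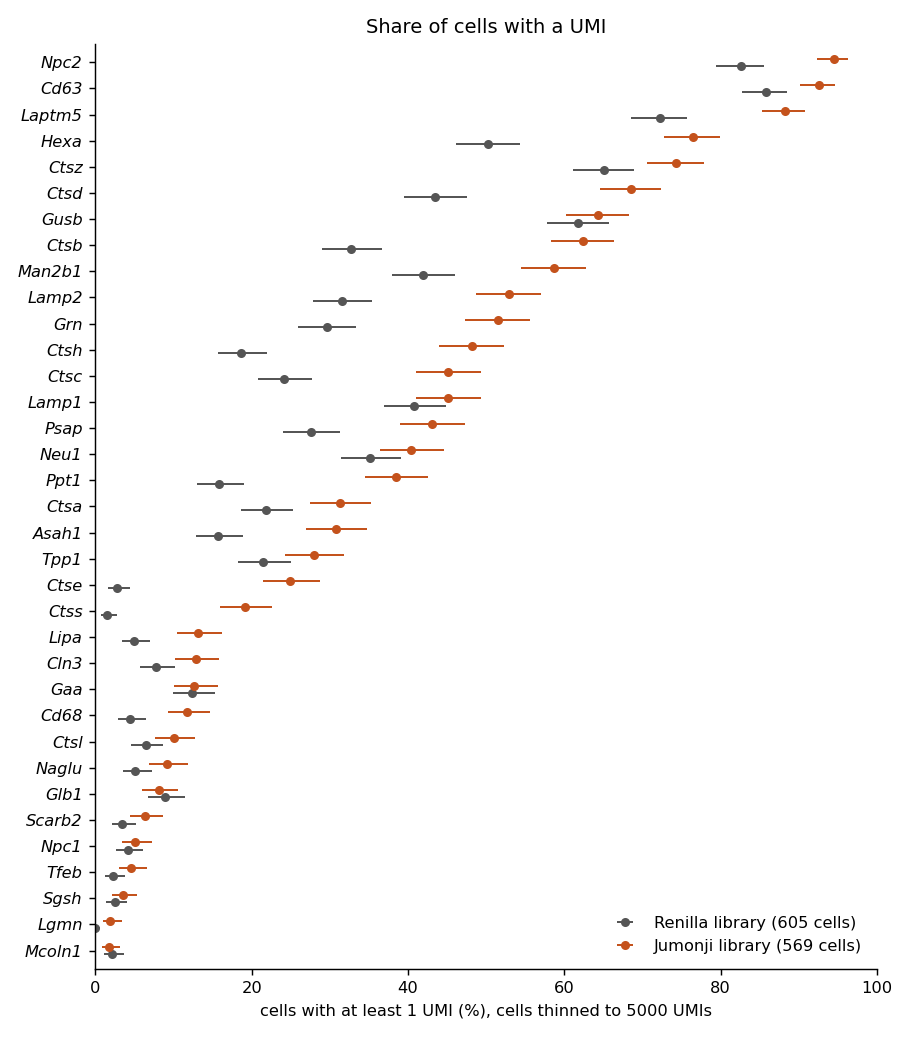
Percent of cells with at least 1 UMI of each gene after thinning to 5000 UMIs per cell, in the Renilla and the Jumonji library, with exact 95% binomial intervals. Ctss goes with 1.49% and 19.2% and Ctse with 2.81% and 25%, whereas the points of Gusb (61.8% and 64.3%) lie close together.

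The difference was spread over cells. Per 5000 UMIs, a Renilla cell held a median of 15 UMIs of the 35 genes (quartiles 11 and 18, range 4 to 44), and a Jumonji cell held 28 (quartiles 22 and 37, range 7 to 93). The lower quartile of the Jumonji cells thus lay above the upper quartile of the Renilla cells, although the ranges overlapped. Cathepsins and legumain gave a median of 3 UMIs in Renilla cells and 6 in Jumonji cells. The number of different genes of the list with a UMI had medians of 9 and 13.

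To ask how these genes vary with maturation, each cell was given a score from 22 neutrophil and monocyte genes with enough UMIs, none of them a lysosome or cathepsin gene of the list. The score is the mean over genes of the standardised log count in the thinned cell, and the cells of both libraries together were cut into 4 bins, from the lowest (1) to the highest (4). A bin is a range of the score and not a cell type. Of 1174 cells, 217, 164 and 88 lay within 0.05 score units of the 3 cuts. The bins held 266, 189, 116 and 34 Renilla cells and 28, 104, 177 and 260 Jumonji cells, so the libraries took up opposite ends. Median depth was 23289, 23948, 24072 and 20344 UMIs in the Renilla bins and 28178, 27024, 24728 and 16168 UMIs in the Jumonji bins. Depth thus moved with the score in the Jumonji library, and its part in the results by bin was not tested.

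Within each library the genes of the list were higher in cells with a higher score. In the Renilla library the 35 genes summed to 2758, 3117, 3506 and 4093 CPM over bins 1 to 4. The Jumonji bins gave 3976, 4490, 5149 and 6577 CPM. Both series run upward without exception, and the lowest Jumonji bin stood near the highest Renilla bin. Cathepsins and legumain summed to 550, 608, 688 and 776 CPM in the Renilla bins and to 842, 923, 1130 and 1566 CPM in the Jumonji bins.

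Comparing the highest with the lowest bin, the summed log2 ratio was 0.57 (0.51 to 0.63) in the Renilla and 0.73 (0.68 to 0.78) in the Jumonji library. In the Renilla library 27 genes had at least 50 UMIs in these 2 bins, and 13 were 1.5-fold or more higher in the highest bin and 1, Ctsl, 1.5-fold or more lower, beside 8.31% and 21.4% of all genes. Their median log2 ratio was 0.58, against -0.16 over all genes. In the Jumonji library 32 genes had enough UMIs, and 18 were 1.5-fold or more higher and 0 lower, beside 17.3% and 16% of all genes, with medians of 0.87 and -0.06. The cathepsins had medians of 0.38 (7 measured, 2 1.5-fold or more higher) in the Renilla and 0.95 (9 measured, 5 higher) in the Jumonji library. The cells of a bin come from 1 library, so these are descriptions of cells and not of replicates.

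**Figure D3:**
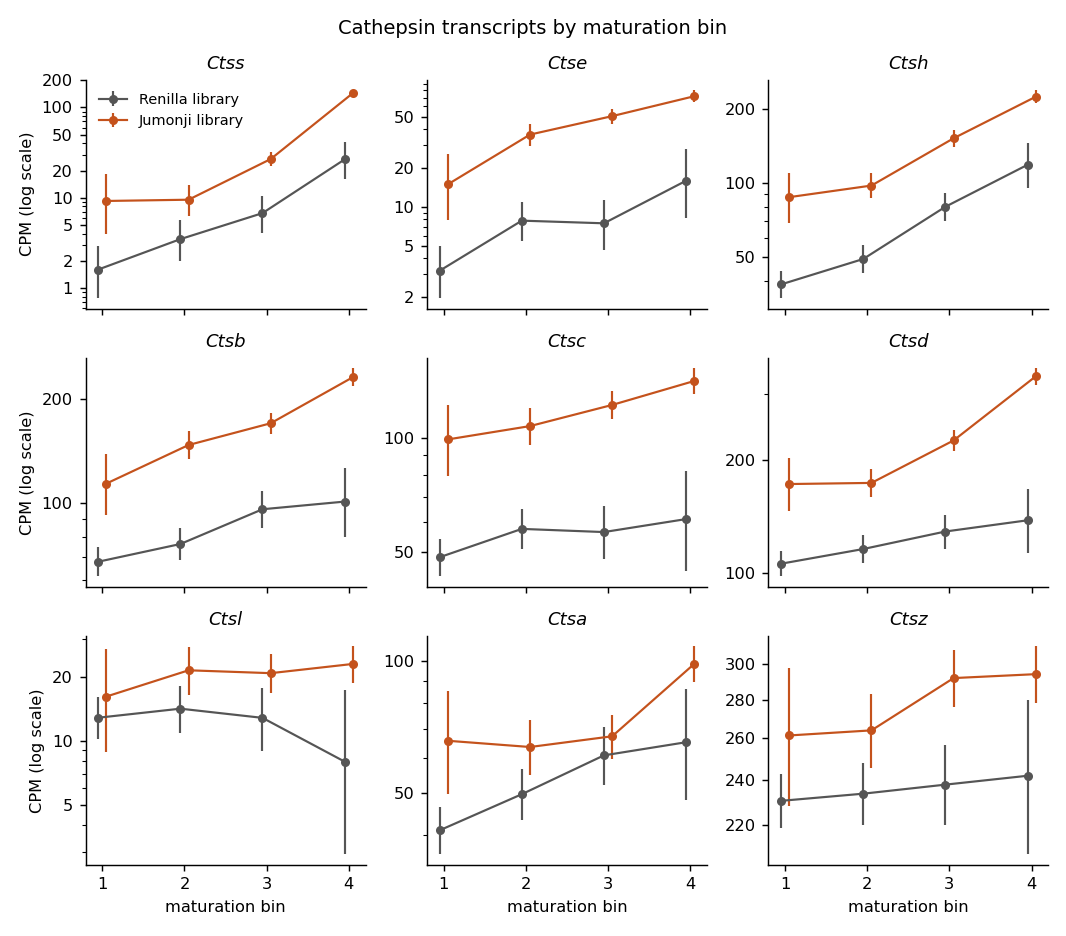
CPM of each cathepsin on a log axis over maturation bins 1 to 4, for the Renilla and the Jumonji library, with exact 95% Poisson intervals. Ctss climbs from 9.21 to 144 CPM over the Jumonji bins, and Ctsz stays between 231 and 294 CPM in all 8 combinations of library and bin.

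Ctss followed the score most steeply of the cathepsins. Its level over the Renilla bins was 1.60, 3.48, 6.75 and 26.6 CPM from 10, 16, 19 and 20 UMIs, and over the Jumonji bins 9.21, 9.51, 26.8 and 144 CPM. The Jumonji ratio of highest to lowest bin was 3.97 on the log2 scale (2.98 to 5.19), and 654 of its 809 UMIs in the scored Jumonji cells came from the highest bin. Ctse took a flatter course, with 15, 36.4, 50.5 and 72.1 CPM in the Jumonji bins (2.27, 1.47 to 3.19) and 3.20, 7.83, 7.47 and 15.9 CPM in the Renilla bins. At equal bin, the Jumonji level of Ctse was above the Renilla level in all 4.

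Ctsh ordered with the score in both libraries, with a log2 ratio of 1.61 (1.24 to 1.97) in the Renilla and 1.35 (1.01 to 1.71) in the Jumonji library. Its levels were 38.8, 49.1, 80.0 and 118 CPM and then 87.5, 97.5, 152 and 223 CPM. Ctsb and Ctsd had smaller ratios in the Renilla library (0.58 and 0.38) than in the Jumonji library (1.02 and 0.95), and Ctsc had 0.33 and 0.51. These differences between the libraries were not tested. Ctsz hardly varied with the score, at 0.07 (-0.16 to 0.29) and 0.17 (-0.03 to 0.38). Ctsl had a ratio of -0.68 from 80 and 6 UMIs in the Renilla library, with an interval from -2.17 to 0.50, and 0.51 in the Jumonji library.

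Outside the cathepsins, Cd68 and Grn passed 2-fold across the score in both libraries. Cd68 had log2 ratios of highest to lowest bin of 2.05 (1.18 to 2.88) in the Renilla and 3.24 (1.86 to 5.13) in the Jumonji library, and Grn of 1.31 (1.00 to 1.61) and 1.59 (1.22 to 1.99). Lipa did so too, with 1.21 and 1.11. The saposin precursor Psap (0.56 and 1.26), Man2b1 (0.72 and 1.02) and Laptm5 (0.60 and 1.08) passed 2-fold in the Jumonji library, as did Npc1 at 1.67 from 3 and 50 UMIs, with an interval of 0.04 to 4. Other genes were nearly level across the score. Gusb had 0.13 and 0.20, Lamp1 -0.28 and 0.21, and Tfeb 0.07 in the Jumonji library, with 28 and 5 UMIs in the Renilla library. The CPM of 19 of the 34 genes ran strictly upward over the Renilla bins and that of 21 over the Jumonji bins, beside 9.02% and 13.8% of all genes.

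**Figure D4:**
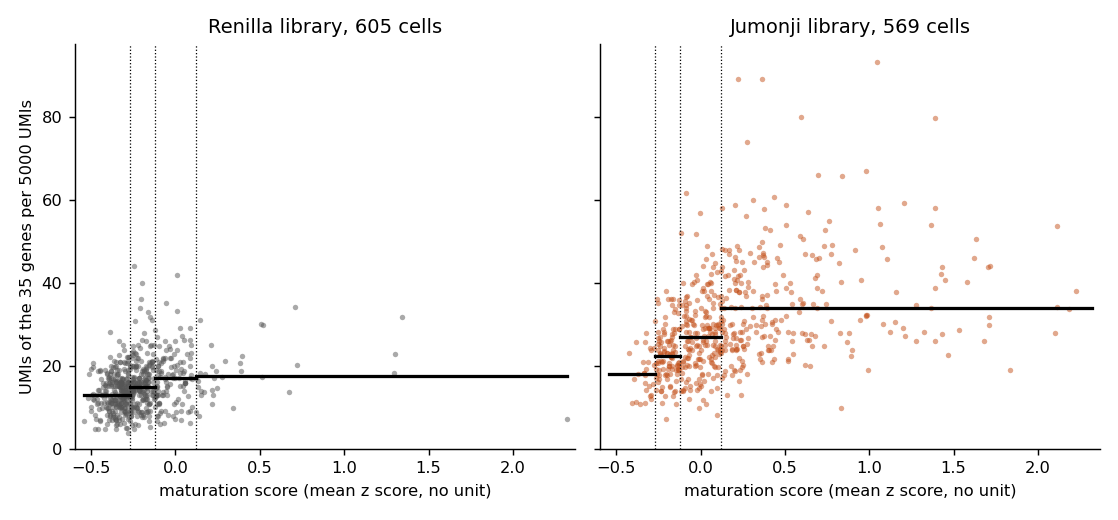
Each point is a cell, with the maturation score on the x axis and the UMIs of the 35 genes per 5000 UMIs on the y axis. Dotted lines mark the cuts between bins and black lines the medians in each bin, which go from 13 to 17.5 in the Renilla and from 18 to 34 in the Jumonji library.

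The libraries also differed at equal score. Within bins 1 to 4, the median log2 ratio of Jumonji over Renilla was 0.46, 0.47, 0.55 and 0.68 over the genes with enough UMIs, and the ratio of sums was 0.53, 0.53, 0.55 and 0.68. For the cathepsins and legumain, the medians were 0.71, 0.75, 0.83 and 1.21. Of the 34 genes, 27 were above 0 in all 4 bins and 1, Gusb, was below 0 in all 4, beside 19.2% and 18.4% of all genes. The mean over bins with equal weight gave a median of 0.52 (all genes -0.01), with 12 genes 1.5-fold or more higher and 0 1.5-fold or more lower, beside 8.88% and 7.09% of all genes. Ctss was then at 2.10 and Ctse at 2.34, in the reverse order of that over all cells.

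Another view of the same data gives the Jumonji library the bin shares of the Renilla library. The list then summed to 4505 CPM in place of 5425 CPM in the scored cells, and its log2 ratio to the Renilla library was 0.54 in place of 0.81. The cathepsins went from 1.00 to 0.66. Individual genes parted here. Cd68 went from 1.36 to 0.31, Grn from 0.81 to 0.17 and Ctss from 3.81 to 2.13. Cd63 went only from 0.98 to 0.87, Ctsc from 1.21 to 1.01 and Tfeb from 1.2 to 1.16. The ratios of Cd68, Grn and Ctss were thus much smaller at matched shares of cells per bin, and those of Cd63, Ctsc and Tfeb were nearly as large. These values carry no interval. The lowest bin takes 44% of the weight and held only 28 Jumonji cells. Those cells gave 4 UMIs of Cd68, 8 of Ctss, 12 of Tfeb, 60 of Grn, 86 of Ctsc and 1020 of Cd63. The reweighted values of Cd68, Ctss and Tfeb are therefore uncertain. The bins are broad, and a score difference inside a bin cannot be told apart from a difference at equal maturation.

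Score genes of single lineages were also used. With the monocyte genes alone, Ctss in the Jumonji library was at 8.37 CPM in the lowest and 147 CPM in the highest bin, a log2 ratio of 4.14 (3.15 to 5.36), and Cd68 had 3.45 and Psap 1.48. Neutrophil genes were too sparse for bins, so cells with and without a UMI of that list were compared in a division added after the data were seen. There Ctss had 0.46 (0.25 to 0.67), Cd68 0.18 and Psap 0.17, and the summed ratio of the list was 0.19 in the Jumonji and 0.21 in the Renilla library. This division differs in form from the bins, so the list of genes and the form of the split cannot be told apart in these values. Jumonji cells with a UMI of the eosinophil genes had more Ctsh (271 and 134 CPM, a log2 ratio of 1.02) and Ctse (85.8 and 44.5 CPM, 0.95), and less Ctss (38.4 and 69.2 CPM, -0.85), than those without. The summed eosinophil list was at 110 CPM in the highest Jumonji bin and 63.3 CPM in the lowest, and the dendritic list at 26.7 and 1.15 CPM. The part of these cells in the results was not tested.

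The libraries also differed within clusters drawn without the genes of the list. The clustering left out 5589 genes and returned 7 clusters that are given by number. Left out were the list, the related lists compared below, and cell cycle, mitochondrial and ribosomal protein genes. Genes 1.5-fold or more apart between the library sums were left out too, maturation markers among them. Cells of unlike maturation can therefore share a cluster, and a ratio within a cluster is not one at equal maturation. Cluster 3, led by Cd74, Mmp8 and Ckb, held 3.62% of Renilla and 27.1% of Jumonji cells, and its cells had a median of 14326 UMIs. The list summed there to 4535 CPM in Renilla cells and 7264 CPM in Jumonji cells, and the cathepsins to 798 and 1901 CPM. Ctss was at 46.1 and 231 CPM in this cluster. In the 5 clusters with at least 20 cells of each library, 23 of the 34 genes were above 0 in every cluster, with a floor of 3 counts for a gene at 0 UMIs, beside 12.8% of all genes. Without the cells of cluster 3, a choice added after the data were seen, the ratio of Ctss was 3.12 and that of Ctse 3.05, and 22 genes were 1.5-fold or more higher (9.12% of all genes). Mcoln1 was then 1.5-fold lower (7.85% of all genes), at -0.59 (-1.17 to -0.03).

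Other lysosomal hydrolases, pump subunits and membrane proteins had smaller medians than these 34 genes. Of 27 other measured hydrolases, 8 were 1.5-fold or more higher in the Jumonji library and 0 lower, beside 11% and 9.04% of all genes. Their median log2 ratio was 0.40. Ggh, which trims folate polyglutamates, had 1.74, Arsb 1.24 and Gm2a, the activator of hexosaminidase, 1.14. The lowest were Idua at -0.39 (-0.98 to 0.18) and Dnase2a at -0.23. Of 16 measured subunits of the V-ATPase, the proton pump that acidifies lysosomes, 2 (12.5%) were 1.5-fold or more higher, near the share over all genes. These were Atp6ap1 at 0.74 and Atp6ap2 at 0.73, and the median of the list was 0.29. Atp6v0a2 was the lowest at -0.47 and Atp6v1f followed at -0.13. Of 19 other measured membrane proteins, 2 (10.5%) were higher, Cd9 at 3 and Abcb9 at 0.83, again near that share. Genes under 50 UMIs were not counted. They were Slc11a1 (4 and 38 UMIs, 3.42, 1.94 to 5.37), Slc15a3 (4 and 28 UMIs, 2.98, 1.46 to 4.95), Lamp3 (11 and 9 UMIs) and Mcoln2 (0 in both). Among the measured genes of this list 1 (5.26%) was lower, Mfsd12 at -0.73, with Slc17a5 next at -0.35 and a median of 0.13.

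The machinery that brings enzymes to lysosomes did not stand higher. Of 14 genes of mannose 6-phosphate tagging and sorting, 0 were 1.5-fold or more higher and 3 lower, beside 11% and 9.04% of all genes. The 3 were Gga2 at -0.81, Gga3 at -0.70 and the receptor gene Igf2r at -0.68, and the median was -0.02. Gnptg at 0.44 and Vps26a at 0.30 were the highest. Among 14 measured TFE relatives and mTORC1 regulators 0 were higher and 1 (7.14%) lower, Fnip2 at -0.90, followed by Rptor at -0.41. The highest were Rragc at 0.32 and Fnip1 at 0.28, and the median was -0.03. Under 50 UMIs and not counted were the TFE relative Mitf (8 and 32 UMIs, 2.17, 1.02 to 3.50), Rragb (1 and 7 UMIs) and Rragd (1 and 2 UMIs). Of 14 autophagy genes 2 (14.3%) were higher, Wipi1 at 1.63 and Map1lc3a at 0.88, near the share over all genes. The median was 0.30, with the lowest values for Wipi2 (-0.36) and Uvrag (-0.25).

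**Figure D5:**
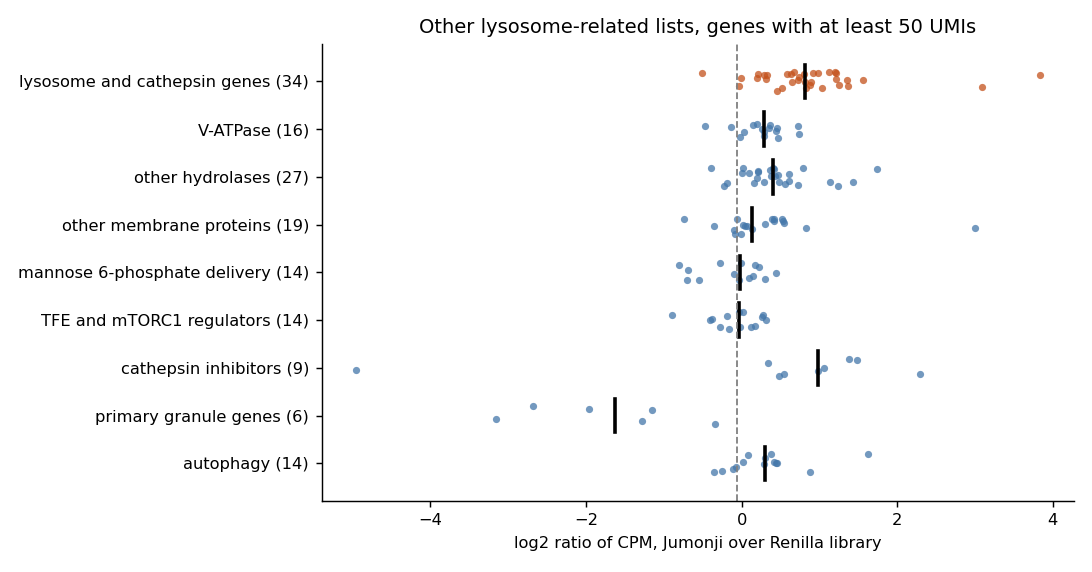
Jumonji over Renilla as a log2 ratio of CPM for every measured gene in the list described here and in 8 related lists, with a black tick at each median and a dashed line at the median of all genes (-0.06). The medians are 0.81 for the lysosome and cathepsin genes, 0.98 for the cathepsin inhibitors and -1.62 for the primary granule genes.

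Most genes listed as inhibitors of cathepsins were higher along with the cathepsins. Of 9 measured, 5 were 1.5-fold or more higher and 1 lower, beside 11% and 9.04% of all genes, with a median of 0.98. Besides cystatins and stefins, the list holds the serpin genes Serpinb6a (0.54) and Serpinb1a (0.48), both under 1.5-fold. BC100530, a stefin A gene, was at 84.6 CPM in the Renilla and 415 CPM in the Jumonji library (2.30), Cst7, the cystatin that inhibits cathepsins of leukocytes, at 71.0 and 199 CPM (1.49), Stfa2l1 at 1.39 and Stfa1 at 1.06. Stfa2 was at 4.85 CPM from 70 UMIs and 0.156 CPM from 2 UMIs (-4.96), and Cstb was at 0.34. The stefin A genes are near-identical copies among which reads can be split, so their separate values are uncertain.

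The granule proteases went the other way from the lysosomal ones. This related list held the serine protease genes Ctsg, Elane and Prtn3, and with them Mpo, Ms4a3 and Srgn. Of these 6 measured genes, 0 were 1.5-fold or more higher and 5 lower, beside 11% and 9.04% of all genes. Their median was -1.62. Ctsg, the serine protease cathepsin G, was at 560 CPM in the Renilla and 87.0 CPM in the Jumonji library (-2.68, -2.78 to -2.59). Mpo was at -3.15, Ms4a3 at -1.97, Elane at -1.28, Prtn3 at -1.15 and the proteoglycan gene Srgn at -0.34. Ctsc, whose product activates serine proteases of granules, was higher in the library in which Ctsg, Elane and Prtn3 were lower. Within the libraries the primary granule list was nearly level over the Renilla bins, from 4999 CPM in the lowest to 5633 CPM in the highest, and over the Jumonji bins it went from 1947 to 1605 CPM. In Jumonji cells, the 16 cells of the highest bin by primary granule genes had Ctss at 6.16 CPM from 3 UMIs, and the 268 of the lowest bin at 104 CPM.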

How the data were processed

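The authors deposited raw UMI counts per gene and cell barcode. They used Cell Ranger 1.3.1 on mm10, per the submitters' processing notes. Neither annotation release nor cell calling rule is given in the sources used here. Coordinates are from GENCODE M21 on the same build, 1-based. Of 651 Renilla and 652 Jumonji barcodes, 608 and 575 had 500 or more genes and a mitochondrial share of 10% or less and were kept. Scrublet marked 10 and 4 of these as doublets, and they were kept. UMIs were summed per library and scaled to CPM. Ratios carry exact 95% intervals of a ratio of Poisson counts, sums exact Poisson and shares exact Clopper-Pearson intervals, and the upper limit for a count of 0 is 3 counts. Higher and lower mean at least 1.5-fold by size. Genes were named by rule: the cathepsins and legumain, other members past 1.5-fold, the 3 with the most UMIs, Mcoln1, Tfeb, Jmjd1c, those past 2-fold over bins, and the 2 highest and 2 lowest of each other list with those past 2-fold. A gene that this rule takes is not reported here. Gaa, Gusb, Sgsh, Glb1, Neu1, Npc1, Tpp1 and Lamp1 were added after their values were seen, to account for every member. Genes under 50 UMIs in the lists of other membrane proteins and of TFE relatives and mTORC1 regulators were also added after their values were seen. The members and all lists were chosen with earlier results of these data known. The score used 22 of 32 listed genes with at least 50 UMIs. Clustering used scanpy 1.11.5 and leidenalg 0.10.2 (2000 variable genes, 30 components, 15 neighbours, resolution 0.6). Alternatives changed the barcode filter, scaling, thinning, doublets, gene minimum, score and bins. The ratio and its interval were tested on simulated data.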

Additional observations from a re-analysis of the deposited data

Results flagged for a closer look

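Barcodes above 10% mitochondrial UMIs were left out of every comparison, and they held more lysosome and cathepsin RNA as a share of their UMIs than the kept cells. In the 77 such Jumonji barcodes the 35 genes summed to 15113.5 CPM (14745 to 15489), against 5445 CPM in the kept Jumonji cells, 7008 CPM in the 43 such Renilla barcodes and 3089 CPM in the kept Renilla cells. Cathepsins and legumain summed to 4110.88 CPM in the excluded Jumonji barcodes, 2003 CPM in the excluded Renilla barcodes and 1224 and 607 CPM in the kept cells. CPM was greater, by any amount, in excluded than in kept barcodes for 32 of the 34 measured genes in the Jumonji library. In the Renilla library this held for 31 of them. The shares of all genes were 54.4% in the Jumonji and 53.3% in the Renilla library. Ctsd was at 1439 CPM in the excluded and 250.5 CPM in the kept Jumonji barcodes, and Ctss at 256 and 64.5 CPM. Ctsh (35.6 and 160 CPM) and Ctse (19.0 and 52.6 CPM) were lower in the excluded ones. Whether these barcodes are damaged cells was not tested.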

How the results depend on the processing

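No paired analysis was possible because each group has 1 library. The summed log2 ratio of the 35 genes was 0.87 with all barcodes, 0.78 with at least 1000 genes and at most 5% mitochondrial UMIs, 0.88 with median-of-ratios size factors (which shift all ratios by 0.06), 0.98 in thinned cells, 0.66 without the highest bin, 0.57 as a mean over bins, 0.77 without Cd63 and 0.73 without cluster 3. The median was 1.05, 0.59 and 0.52 in thinned cells, without the highest bin and over bins. The median of cathepsins and legumain was 1.03, 0.93 and 1.09 without the highest bin, over bins and without cluster 3. Genes 1.5-fold or more higher numbered 12 over bins, and 1 was lower without cluster 3. For the highest over the lowest bin, the summed Renilla ratio was 0.50 by monocyte genes alone, 0.21 by primary granule genes in reverse, 0.41 with 3 parts and 0.40 with bins of each library on its own, and the Jumonji ratio 0.45, 0.61 and 0.67 for the last 3 and 0.82 with the score from 10000 UMIs. The Renilla cathepsin median turned to -0.018 by primary granule genes. Split by the neutrophil genes, an added alternative in place of bins that could not be cut, the sums were 0.21 (Renilla) and 0.19 (Jumonji), and the Jumonji medians 0.16 for the list and 0.075 for cathepsins. Ratios of single genes moved by more than their interval for 24 of 35 over bins, 20 in thinned cells and 17 without the highest bin, and 0 past 1.5-fold changed sign. Shares of cells with a UMI, 70 over both libraries, moved for 65 at 10000 UMIs per cell and for all 70 without thinning. Counts under 100 UMIs in a library limit Ctss, Ctse, Lgmn, Sgsh, Scarb2, Mcoln1 and Tfeb.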
